A study of Mus musculus with 4 samples.

Results

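Transcripts of 10 carboxylesterase genes, Ces1c, Ces1d, Ces1e, Ces1f, Ces1g, Ces2a, Ces2c, Ces2e, Ces3a and Ces3b, were examined in mouse liver by RNA sequencing. They were taken by gene symbol from the 24138 rows of the deposited expression table, which holds 19 carboxylesterase rows in all. The 4 livers came from male C57BL/6J mice aged 18 weeks, and all of them were fed the FAT-MASH diet and treated with RvD1. MASH stands for metabolic dysfunction-associated steatohepatitis, a fatty liver with inflammation. RvD1 is resolvin D1, a fatty-acid-derived signal in the resolution of inflammation. The labels give neither the dose nor the duration of RvD1. All 4 samples form 1 group, named livers 1 to 4, and no untreated, diet-only or vehicle livers were analysed here. The values therefore describe levels and their spread between animals, and no effect of diet or treatment can be estimated from them. The labels number the samples as livers and say no more on how the animals were housed or sampled.

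Carboxylesterases are serine hydrolases that cleave ester and amide bonds in drugs, toxins and endogenous lipids. Most of them reside in the lumen of the endoplasmic reticulum, where a short retrieval signal at the end of the protein keeps them, and the liver is their main site. In the mouse the family has expanded by tandem duplication, and several of its hepatic members hydrolyse stored triglyceride and take part in the supply of fatty acids for very low density lipoprotein (VLDL). Genes of the Ces2 group are known as induced targets of the drug-sensing nuclear receptors CAR and PXR.

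The family was abundant in every liver. In units of FPKM (fragments per kilobase of transcript, scaled to the number of mapped fragments), the means of Ces3a and Ces1c were 946.5 and 910.9, that of Ces1d was 457.6, those of 6 genes lay between 73.7 and 166, and that of Ces2c was 10.7. All 10 genes passed the threshold of 1 FPKM used to call a gene expressed, as did 10541 rows of the table. Ces3a ranked 71st and Ces1c 76th by mean among all rows.

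Sequences at the catalytic site and at the end of the coding region are given first, because the motif codons and the retrieval signal codons are the features of this enzyme family that can be read from sequence. Neither activity nor location was measured. They were read from the GENCODE vM21 transcript with the longest coding sequence of each gene (GRCm38). In each of the 10 coding sequences the codon pattern for the esterase motif G-x-S-x-G, followed by a further glycine codon, was found once, starting between coding bases 655 and 688. Capitals mark the 15 bases of the motif, whose middle codon encodes the catalytic serine.
Ces1c: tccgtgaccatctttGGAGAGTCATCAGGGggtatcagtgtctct
Ces1d: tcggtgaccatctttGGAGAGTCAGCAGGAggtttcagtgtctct
Ces1e: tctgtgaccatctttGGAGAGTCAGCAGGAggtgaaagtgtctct
Ces1f: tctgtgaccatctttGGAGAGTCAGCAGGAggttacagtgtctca
Ces1g: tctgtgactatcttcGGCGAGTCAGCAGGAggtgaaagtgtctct
Ces2a: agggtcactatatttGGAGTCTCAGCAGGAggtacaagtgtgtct
Ces2c: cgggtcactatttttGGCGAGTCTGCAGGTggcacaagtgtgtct
Ces2e: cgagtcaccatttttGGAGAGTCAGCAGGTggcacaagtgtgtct
Ces3a: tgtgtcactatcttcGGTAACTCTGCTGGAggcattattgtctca
Ces3b: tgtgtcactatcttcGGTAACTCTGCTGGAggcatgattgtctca
The serine codon was present in every member. The codon before it was GAG in all 5 Ces1 genes, in Ces2c and in Ces2e, whereas it was GTC in Ces2a and AAC in Ces3a and Ces3b.

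The last 30 coding bases are shown with the final 4 codons in capitals, the place of the HXEL retrieval signal (histidine, any residue, glutamate, leucine).
Ces1c: acagaccctactgaacacACAGAACACAAA
Ces1d: aggccatcccacagggaaCATGTTGAGCTC
Ces1e: aagcaactgccgacagaaCACACTGAGCTG
Ces1f: aaacaaccccagccatacCACAATGAGCTG
Ces1g: aggtcatcccatagggaaCATGTTGAACTG
Ces2a: aagggttctcaggacaagCATGCAGAGCTG
Ces2c: aaggcttctcaggacaagCACAGGGAGCTT
Ces2e: aaggggtctcaggagaggCACAAAGAGTTG
Ces3a: cagagaagcaggaaagttCCAGAGGAGCTC
Ces3b: cagagaagcaggaaagttCCAGAGGAGCTC
Codons for HXEL closed 7 of the 10 coding sequences. Ces1c, whose product is the major carboxylesterase of mouse plasma, lacked them. Ces3a and Ces3b shared identical last 30 bases and ended in the glutamate and leucine codons without the histidine codon.

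The 3 members without HXEL codons included the pair with the highest levels. Ces3a (XLOC_020932, chromosome 8, 105048599 to 105058414, build mm10 as for all coordinates of the deposited table), which encodes a hepatic esterase, reached 899, 729, 1015 and 1143 FPKM in the 4 livers in their order, with a mean of 946.5 ± 175.6 FPKM (SD, n = 4). Liver 4 was highest and liver 2 lowest, a 1.57-fold range. Ces1c (XLOC_021450, chromosome 8, 93099016 to 93131283) was listed at 818, 904, 913 and 1009 FPKM, with a mean of 910.9 ± 78.1 FPKM (SD, n = 4). Its 4 values lay within 1.23-fold, and liver 1 was the lowest. The ranges of Ces3a and Ces1c overlapped, and Ces3a was higher in 3 of the 4 livers, so their order is not separated by these data. Together with Ces1d they held 75.7 ± 0.991% of the summed FPKM of the 10 genes (SD, n = 4).

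**Figure D1:**
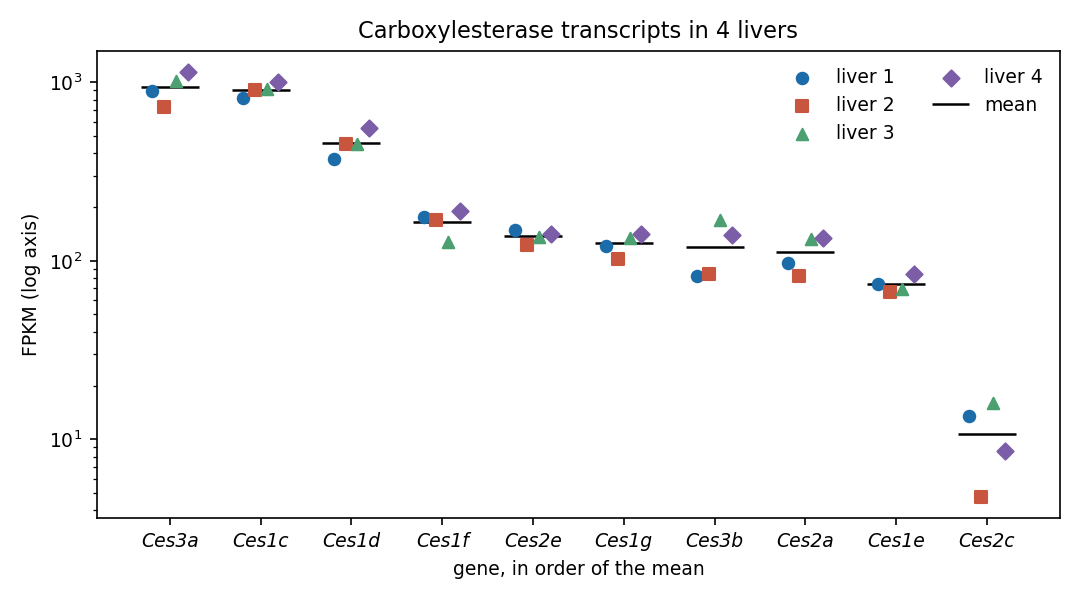
Level of each carboxylesterase gene in each of the 4 livers (FPKM, log axis), with genes in order of their mean (black bars); each symbol is 1 liver. Ces3a and Ces1c sit together at the top, Ces1d is separate from both its neighbours, 6 genes form a band between about 67 and 190 FPKM, and Ces2c is lowest with the widest scatter.

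The Ces1 genes with HXEL codons were examined next. Ces1d (XLOC_021451, chromosome 8, 93166072 to 93197804) encodes the triacylglycerol hydrolase of the endoplasmic reticulum, which mobilises stored triglyceride for VLDL. Its values were 374, 454, 452 and 551 FPKM in livers 1 to 4, a mean of 457.6 ± 72.6 FPKM (SD, n = 4). Liver 4 was highest and liver 1 lowest, and the range overlapped neither that of Ces1c above nor that of Ces1f below. Ces1c exceeded Ces1d by 2.19-fold, 1.99-fold, 2.02-fold and 1.83-fold in the 4 livers, a ratio of 2.01 ± 0.146 (SD, n = 4).

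Ces1f (XLOC_021453, chromosome 8, 93256236 to 93279736), a paralog of Ces1d in the same cluster, was at 177, 170, 127 and 190 FPKM. Livers 1, 2 and 4 were close together and liver 3 stood below them. Its SD on the scale of log2(FPKM + 1) was 0.25 with all livers and 0.08 without liver 3. Ces1g (XLOC_021454, chromosome 8, 93302369 to 93337209), which encodes a hydrolase of triglyceride and cholesteryl ester, was at 121, 103, 135 and 141 FPKM. Liver 2 was the lowest for this gene, and the SD of log2(FPKM + 1) fell from 0.20 to 0.11 without it.

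Ces1e (XLOC_021452, chromosome 8, 93201218 to 93229619) encodes egasyn, the esterase that holds beta-glucuronidase in the endoplasmic reticulum. It was listed at 74.6, 66.7, 69.5 and 84.0 FPKM, the lowest level among the 5 Ces1 genes in every liver. Gusb, which encodes beta-glucuronidase, was at 24.3, 22.2, 18.6 and 24.5 FPKM. The ratio of Ces1e to Gusb was 3.31 ± 0.342 (SD, n = 4), between 3.00 and 3.74 in the single livers.

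The Ces2 genes were lower as a group and differed most in spread. Ces2e (XLOC_020928, chromosome 8, 104926260 to 104934672) was listed at 148, 123, 135 and 141 FPKM, a mean of 136.8 ± 10.5 FPKM (SD, n = 4). Its SD on the scale of log2(FPKM + 1) was 0.11, next to 0.12 for Ces1c and 0.14 for Ces1e, and which of these 3 was smallest changed with the scaling and with the livers included. At an equal sum per liver it was 0.09 for Ces1c and for Ces1e and 0.11 for Ces2e. Ces2a (XLOC_020923, chromosome 8, 104734003 to 104741634), a hydrolase of diglyceride and triglyceride and of drug esters, was at 97.0, 81.7, 133 and 134 FPKM. Livers 3 and 4 were nearly equal and lay above livers 1 and 2.

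Ces2c (XLOC_020926, chromosome 8, 104847068 to 104854482), another hydrolase of this group, was at 13.5, 4.77, 15.9 and 8.60 FPKM, a mean of 10.7 ± 4.99 FPKM (SD, n = 4). The values spanned 3.34-fold, with livers 1 and 3 high and liver 2 lowest. From the estimated depth these values correspond to about 466, 162, 539 and 280 fragments, and the counting error of the lowest is about 7.85%, which is smaller than the differences between the livers. This covers counting error alone. Without liver 2 the SD of log2(FPKM + 1) of Ces2c fell from 0.695 to 0.423. The ratio of Ces2e to Ces2c ranged from 8.48 in liver 3 to 25.8 in liver 2.

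Ces3b (XLOC_020933, chromosome 8, 105083755 to 105093591), the neighbour of Ces3a, was at 82.4, 84.5, 168 and 140 FPKM, with livers 1 and 2 low and livers 3 and 4 high. The lowest and the highest value differed 2.04-fold. Ces3a exceeded Ces3b in every liver, by 10.9-fold, 8.63-fold, 6.03-fold and 8.16-fold. The coding sequences of this pair were 95.3% identical, the highest identity among the 45 pairs of members.

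The order of the 10 means was Ces3a, Ces1c, Ces1d, Ces1f, Ces2e, Ces1g, Ces3b, Ces2a, Ces1e and Ces2c. Ranges over the 4 livers overlapped in 6 of the 9 neighbouring pairs, that is in every pair except Ces1c with Ces1d, Ces1d with Ces1f and Ces1e with Ces2c. Ces2a was above Ces1e in 4 of 4 livers although their ranges overlapped. At an equal sum per liver these 2 ranges did not overlap (156.4 to 257.2 for Ces2a, 127.8 to 147.1 for Ces1e). The number of overlapping pairs was 5 at an equal sum and with median-ratio scaling, and 5 or 6 with 1 liver left out. Ces1d, Ces1e and Ces2c held the same rank in each liver, as the third, the ninth and the last. Ces1f was the fourth in livers 1, 2 and 4 and the eighth in liver 3, where Ces3b was the fourth. No test was run on these orders, which are given as a description.

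By subfamily, the 5 Ces1 genes summed to 1564, 1697, 1696 and 1975 FPKM in livers 1 to 4, the 3 Ces2 genes to 259, 209.7, 284 and 283 FPKM, and the 2 Ces3 genes to 982, 814, 1183 and 1283 FPKM. Ces1 genes thus made up 56.9 ± 3.8% of the summed FPKM of the 10 members, Ces3 genes 34.6 ± 3.3% and Ces2 genes 8.47 ± 0.741% (each SD, n = 4). Liver 2 had the largest Ces1 share (62.4%) and the smallest Ces3 share (29.9%). All 10 genes together held 0.535%, 0.521%, 0.612% and 0.620% of the summed FPKM of the table. That sum holds nothing for Alb, which was listed at 0 in all 4 livers, so the shares are of the listed values only.

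The remaining 9 carboxylesterase rows added 48.4 ± 5.85 FPKM (SD, n = 4). Of these, 2 were expressed. Ces1b was listed at 25.7, 21.7, 26.2 and 31.5 FPKM and Ces2g at 20.1, 17.8, 24.3 and 20.2 FPKM, so both exceeded Ces2c in every liver. Ces2b (0.311, 0.0828, 1.15 and 0.551 FPKM), Ces4a, Ces2h, Ces1a and the pseudogene Ces2d-ps had means below 1 FPKM. Ces2f was listed at 0.0934 FPKM in liver 3 and at 0 in the other livers, and Ces5a at 0 in all 4. Ces1h had no row under that symbol, so no level was read for it. Expressed and near-silent genes alternated along the Ces2 cluster, where Ces2b and Ces2d-ps flank Ces2c, and Ces2f and Ces2h flank Ces2g. Ces3a and Ces3b are direct neighbours.

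**Figure D2:**
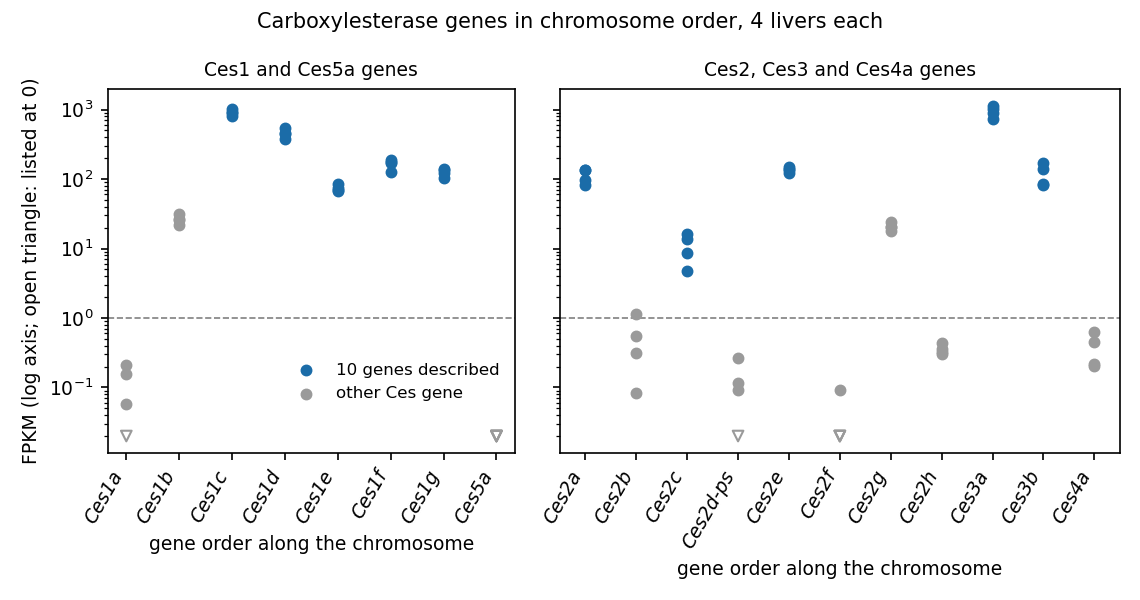
FPKM (log axis) of all 19 carboxylesterase rows in the order of their positions, in the group of Ces1 genes with Ces5a (left) and the group of Ces2, Ces3 and Ces4a genes (right); each filled point is 1 liver, open triangles are values listed at 0 and the dashed line is 1 FPKM. Ces1c to Ces1g lie next to each other and all exceed 66 FPKM, whereas in the second group Ces2a, Ces2c, Ces2e and Ces2g are each separated from the next by a gene with a mean below 1 FPKM and Ces3a and Ces3b stand side by side.

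The neighbours Ces1b and Ces1c differed widely in level, and the share of their promoter sequence that matches depends on the start site used. Ces1c exceeded Ces1b by 31.8-fold, 41.6-fold, 34.8-fold and 32.1-fold in livers 1 to 4, while their coding sequences were 91.2% identical. Of the windows of 50 bases in Ces1c, 17.0% also occur in another gene, mainly in Ces1b, so reads can fit both genes. The shared windows of Ces1b were not counted, which limits these ratios. RefSeq (GRCm38.p6) gives 2 start sites for Ces1b. From the start that matches the deposited span of Ces1b, 140 of 147 aligned bases were identical with Ces1c, which is 56% of the 250 bases, and the rest had no identical partner. The bases before the other, more downstream start and those before the start of Ces1c were aligned over 250 bases each, and 211 of 223 aligned bases (94.6%) were identical. The part of that alignment upstream of every annotated Ces1b start is shown, 173 bases of Ces1b and 163 bases of Ces1c, both on the minus strand, with capitals for bases that differ or have no partner.
Ces1b, chr8:93080018-93080190: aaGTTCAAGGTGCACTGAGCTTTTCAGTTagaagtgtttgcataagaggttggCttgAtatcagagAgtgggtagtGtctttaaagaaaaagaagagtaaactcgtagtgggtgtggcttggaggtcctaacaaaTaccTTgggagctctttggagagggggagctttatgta
Ces1c, chr8:93131371-93131533: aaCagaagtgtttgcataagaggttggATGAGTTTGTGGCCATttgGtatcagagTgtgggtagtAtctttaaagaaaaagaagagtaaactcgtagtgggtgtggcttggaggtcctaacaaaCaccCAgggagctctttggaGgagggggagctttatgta
Over the shown stretch 139 of 147 aligned bases were identical. No other measurement of promoter activity was analysed here, so the differing bases are shown as a description.

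Promoters of 7 members were in the RefSeq table (Ces1c, Ces1e, Ces1g, Ces2a, Ces2c, Ces2e and Ces3b), and their 250 bases before the start were searched on both strands. The letters CCAAT occurred in 5 of the 7 (Ces1c, Ces1g, Ces2a, Ces2c and Ces3b), against 33.8% of 32851 promoters of that length. TATAAA occurred in Ces1g and Ces3b (12.4% of all promoters) and the nuclear receptor core motif AGGTCA in Ces2a alone (14.0% of all). The antioxidant response element TGACNNNGC (10.2% of all) and the palindromic HNF1 motif (0.00913% of all) were not found in these windows of the 7. The reverse complement of AGGTCA begins with the letters TGAC, as does the antioxidant response element, so 1 stretch could match both. A match is a description of the sequence.

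Because the members are paralogs, reads can fit more than 1 gene, and how the quantification shared such reads is not given in the sources used here. Windows of 50 bases that also occur in a transcript of another gene made up 42.2% of Ces2c (most with the pseudogene Ces2d-ps), 30.9% of Ces3a and 26.1% of Ces3b (most with each other), 22.2% of Ces2a (most with the pseudogene Gm7208) and 17.0% of Ces1c (most with Ces1b). The other 5 members had between 1.28% and 3.36%. With windows of 100 bases the shares were 16.0% for Ces2c, 10.7% for Ces2a, 9.09% for Ces3a, 7.68% for Ces3b and 1.39% for Ces1c, and 0 for the rest. The levels of Ces2c, Ces2a, Ces3a and Ces3b are therefore less certain than those of Ces1d, Ces1e, Ces1f, Ces1g and Ces2e. Ces1c lies between these groups. Within subfamilies the coding identity had a median of 79.0% over 14 pairs (74.6% to 95.3%), and between subfamilies 63.9% over 31 pairs (62.2% to 65.9%). The spans of the 10 genes in the table overlapped no other row.

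**Figure D3:**
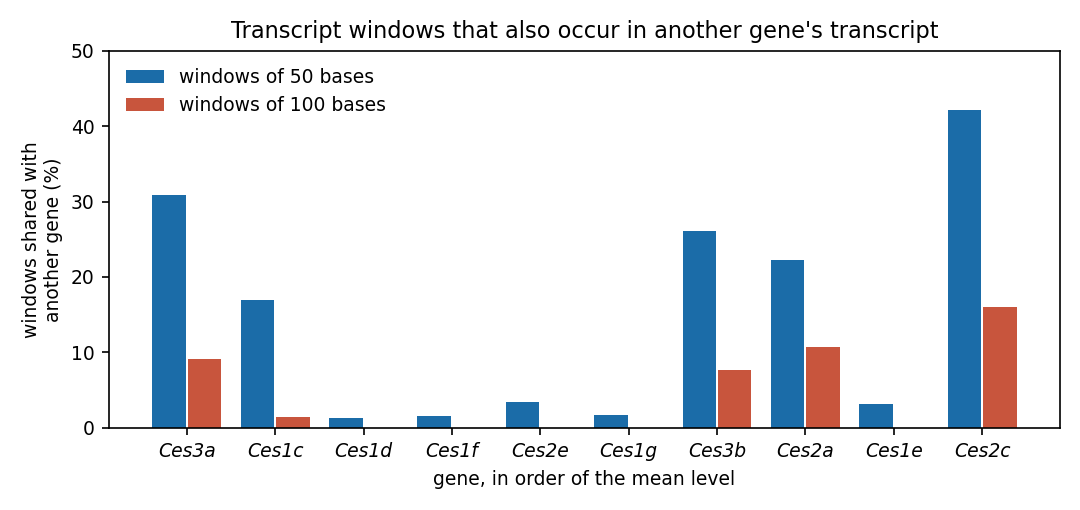
Percent of the windows of 50 bases (blue) and of 100 bases (red) in each member's transcript that also occur in a transcript of another gene (GENCODE vM21), with genes in order of their mean level. Ces2c, Ces3a, Ces3b, Ces2a and Ces1c share 17.0% or more of their windows of 50 bases, and the other 5 genes less than 4%.

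The spread between animals was above that of the median expressed gene for 7 of the 10 genes. That number was 10 with a pseudocount of 5, 6 at an equal sum per liver, where Ces1g was below the median too, and 6 to 8 with 1 liver left out, where Ces1d (without liver 1), Ces1g (without liver 2) and Ces1f (without liver 3) were below it. On the scale of log2(FPKM + 1), the SD between livers had a median of 0.24 for the members and 0.16 for all 10541 expressed genes. It was 0.695 for Ces2c, 0.515 for Ces3b and 0.35 for Ces2a, which placed these 3 above the 90th percentile of all expressed genes (0.30). Ces3a (0.28), Ces1f (0.25), Ces1d (0.23) and Ces1g (0.20) were above the overall median, while Ces1e (0.14), Ces1c (0.12) and Ces2e (0.11) were below it. Single livers moved some of these values by over 1.5 times. Without liver 2 the SD was 0.17 for Ces3a, 0.11 for Ces1g, 0.42 for Ces2c and 0.07 for Ces2e, without liver 3 it was 0.08 for Ces1f, and without liver 4 it was 0.08 for Ces1e. The 3 members with the widest spread are among the 4 that share the most windows of 100 bases with other genes, and the part of shared reads in their spread was not tested. This is a description with no test, since the members were chosen with results of these data known.

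With the values as deposited, most members were low in liver 2 and high in liver 4. Liver 2 was the lowest of the 4 for 6 of the 10 genes (Ces1e, Ces1g, Ces2a, Ces2c, Ces2e and Ces3a), against 29.9% of all expressed genes. Liver 4 was the highest for 7 (Ces1c, Ces1d, Ces1e, Ces1f, Ces1g, Ces2a and Ces3a), against 33.3% of all expressed genes. As deviations of log2(FPKM + 1) from each gene's mean, the median member was at -0.04, -0.21, 0.06 and 0.20 in livers 1 to 4, and the median of all expressed genes at -0.01, -0.02, -0.01 and 0.04. With another liver left out, the median member ranged from -0.20 to -0.17 in liver 2 and from 0.15 to 0.19 in liver 4. At an equal sum per liver it was -0.18 in liver 2, 0.107 in liver 3 and 0.104 in liver 4, so that livers 3 and 4 were level. In liver 1 the median member ranged from -0.14 without liver 2 to 0.03 without liver 4, a change of sign. In liver 3 it ranged from 0.00302 without liver 2 to 0.13 without liver 4, so no direction is read for these livers. The high count in liver 4 depended on the scaling. With median-ratio scaling 6 of 10 were highest in liver 4. When every liver was scaled to an equal sum, 4 of 10 were highest in liver 4 and 4 in liver 3, whereas liver 2 was the lowest for 6 of 10 under either scaling. The shares of all expressed genes were not recomputed under these scalings, so these counts have no background beside them. The deposited values of liver 4 summed to 570681 FPKM, more than the 516816 to 524394 FPKM of the other livers.

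**Figure D4:**
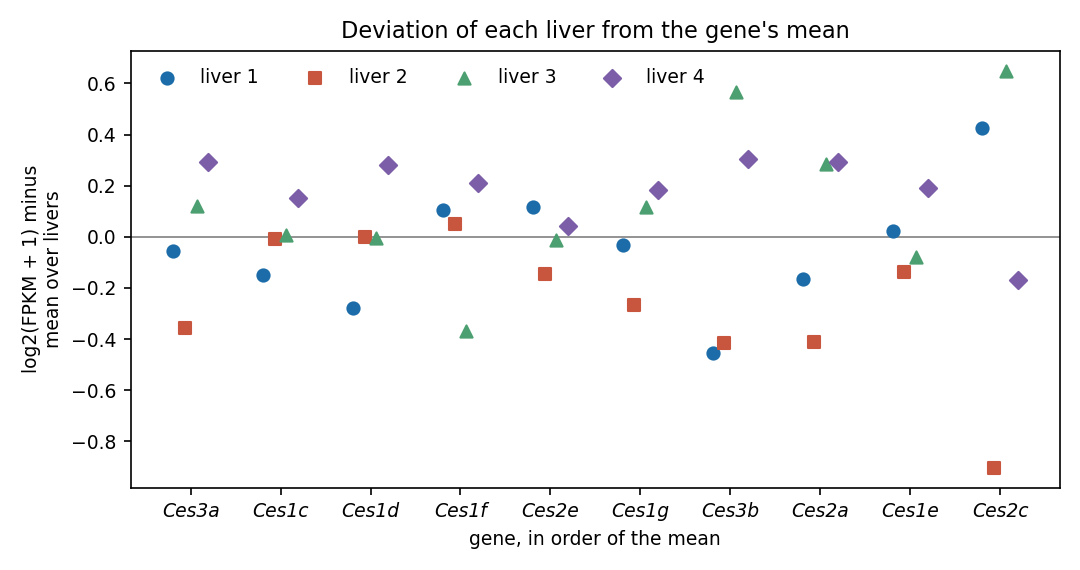
Deviation of log2(FPKM + 1) in each liver from the gene's mean over the 4 livers, for the members in order of mean level; each symbol is 1 liver and the grey line is 0. Liver 2 is the lowest symbol for 6 genes and reaches -0.90 for Ces2c, liver 4 is above 0 for 9 of 10 genes, and liver 3 is the lowest for Ces1f at -0.37.

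Dixon's ratio, the gap of the most extreme liver to its nearest neighbour divided by the whole range, stayed under its 95% limit in all members (0 of 10 past it, against 5.46% of all expressed genes). The largest ratio was 0.725, for Ces1f with its low value in liver 3. Scaled to an equal sum per liver, Ces1f (0.895, liver 3 low) and Ces1c (0.835, liver 1 low) passed that limit, against 5.37% of all expressed genes.

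Genes whose 4 values moved most like those of Ces2c, the member with the widest spread, were sought outside the family, among the 6526 genes whose mean reached 5 FPKM. The nearest was Rhbg, an ammonium transporter, with 11.4, 4.08, 12.4 and 8.76 FPKM in livers 1 to 4 and a root-mean-square difference of 0.13 on the log2 scale. Lhpp (0.18), Kcnk5 (0.20), Ppp1r3c (0.21) and Mup10 (0.22) followed. With 4 livers and this many genes searched, the likeness is a description.

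Other genes of neutral lipid hydrolysis gave a background for these levels. All 15 genes of that list were expressed. Beside hydrolases it holds the regulators or lipid droplet proteins Abhd5, G0s2, Hilpda and Plin5, and the median SD of log2(FPKM + 1) over the whole list was 0.16. Aadac, an arylacetamide deacetylase of the endoplasmic reticulum related to the family in function, was at 382, 338, 350 and 367 FPKM. Ces3a exceeded Aadac by 2.63 ± 0.449 times and Ces1c by 2.54 ± 0.273 times (each SD, n = 4), while Ces1d was below Aadac in liver 1 (0.979) and above it in the other livers (1.29 to 1.5). Pnpla2, which encodes the main triglyceride lipase of lipid droplets, had 64.8 ± 6.54 FPKM, Lipc, hepatic lipase, 66.6 ± 7.03 FPKM, and Mgll, monoglyceride lipase, 112 ± 20.7 FPKM (each SD, n = 4). Lipe, hormone-sensitive lipase, had 9.67 ± 0.914 FPKM and Pnpla3 1.57 ± 0.544 FPKM (each SD, n = 4). Ces1d was 7.05 ± 0.802 times as high as Pnpla2 (SD, n = 4), with the lowest ratio, 5.86, in liver 1. G0s2, which encodes an inhibitor of the Pnpla2 lipase, had the highest value of the list in liver 3 (396 FPKM, against 133 to 180 FPKM in the other livers).

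In a list of 16 other hydrolases, most of them esterases and amidases of small molecules but also holding Sirt1, a protein deacetylase, and Notum, which removes a lipid from Wnt proteins, 14 genes were expressed, with a median deviation of -0.12 in liver 2 and 0.13 in liver 4. Pon1, a serum esterase made by the liver, was at 376, 296, 303 and 459 FPKM, and Ache, acetylcholinesterase, had a mean of 0.454 FPKM. The retrieval receptors Kdelr1 and Kdelr2 had 86.1 ± 5.06 and 66.03 ± 4.18 FPKM and Kdelr3 0.872 ± 0.277 FPKM (each SD, n = 4).

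Transcripts of the drug-sensing receptors had narrow ranges. Nr1i3, which encodes CAR, was at 35.2, 36.6, 35.0 and 41.4 FPKM, and Nr1i2, which encodes PXR, at 29.8, 32.9, 31.6 and 32.3 FPKM. The ranges of both stayed within 1.18-fold, and those of the Ces2 genes were 1.2-fold for Ces2e, 1.64-fold for Ces2a and 3.34-fold for Ces2c. Receptor activity was not measured, and its part in the spread of the Ces2 genes was not tested. Ppara had 60.6 ± 4.83 FPKM, Nfe2l2, which encodes NRF2, 37.5 ± 2.87 FPKM and Hnf4a 118 ± 27.2 FPKM (each SD, n = 4). In the list of 20 regulators, all expressed, the highest mean was that of Cebpa (194 FPKM) and the lowest that of Ahr, which encodes the aryl hydrocarbon receptor (4.26 FPKM, with 5.24 FPKM in liver 1 and 3.85 to 4.03 FPKM in the others).

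Of 20 genes induced through CAR and PXR, 15 were expressed. Cyp3a11, a classical PXR target, was at 1938, 1416, 1961 and 2085 FPKM. Over the 15 expressed genes the median deviation was -0.10 in liver 2, with 4 above their mean, and 0.14 in liver 4, with 10 above their mean. The share in liver 4 was near the 60.8% of all expressed genes above their mean there, and that in liver 2 was below the 45.1% of all expressed genes. Gstm1, a glutathione S-transferase with the highest mean of both this list and the NRF2 list, was at 2315, 1475, 2113 and 1809 FPKM. In liver 4 Cyp3a11 was higher. Cyp2b10, a classical CAR target, was at 0.156, 0.828, 0.596 and 0.153 FPKM, below 1 FPKM in all livers, and Cyp2b13 was listed at 0 in all 4. Of 16 NRF2 targets 15 were expressed, with Nqo1 at 5.27 ± 0.949 FPKM (SD, n = 4) and Slc7a11, the lowest, at a mean of 0.0388 FPKM. All 12 genes of VLDL assembly were expressed, and Mttp, the microsomal triglyceride transfer protein, varied within 1.11-fold around 85.9 FPKM, and Apob within 1.23-fold around 319 FPKM. The highest of that list was Apoc3 (5167 ± 606 FPKM) and the lowest Tm6sf2 (20.5 ± 3.6 FPKM, each SD, n = 4).

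Values of other gene lists are given for liver 2, the liver in which most members were low, and for liver 4. Of all expressed genes 45.1% were above their mean in liver 2 and 60.8% in liver 4, against 2 of 10 and 9 of 10 members. All 12 acute phase genes were above their mean there, by a median of 0.79, and Saa1 was at 2135 FPKM against 45.6 to 139 FPKM in the other livers. Pericentral hepatocyte genes were at -0.30 in liver 2, where 1 of 12 was above its mean, and Oat was at 37.97 FPKM against 67.7 to 95.1 FPKM. Stellate cell markers (10 of 11 above their mean, summed 354 FPKM against 228 to 279 FPKM) and endothelial markers (8 of 9, summed 94.0 against 69.4 to 85.1 FPKM) were highest in liver 2, and macrophage markers were above their mean in 9 of 9 there (summed 259 FPKM, between 193 FPKM in liver 3 and 277 FPKM in liver 4). No marker of these 3 cell type lists was at 0 in all livers. Hepatocyte markers were above their mean for 5 of 14 in liver 2 (median -0.06), and periportal genes for 5 of 11 (median -0.01), the latter at the share of all expressed genes. In liver 4, where most members were high in the deposited values, 11 of 14 hepatocyte markers, 10 of 12 pericentral genes, 8 of 11 periportal genes and 11 of 12 genes of VLDL assembly were above their mean, counts that were not recomputed at an equal sum. The share of periportal genes was close to that of all expressed genes. There 1 of 11 stellate markers, 5 of 9 endothelial markers and 7 of 9 macrophage markers were above their mean, of which the endothelial share was near that of all expressed genes. The part of these genes and cells in the levels of the carboxylesterase genes was not tested. In whole liver, fewer cells of a type and less RNA per cell cannot be told apart.

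The labelled tissue was checked against marker lists. Of 15 hepatocyte markers 14 were expressed, and Alb was listed at 0 in all 4 livers, which can be a failed estimate in a table of this kind. Ces1d is also a gene of adipocytes and Ces2 genes are also genes of the intestine. Of 9 adipocyte markers 5 were expressed, and the list summed to 109.8 to 147.9 FPKM. By mean these 5 were Pnpla2 (64.8 FPKM), Cidec (38.7 FPKM), Fabp4 (19.6 FPKM), Lipe (9.67 FPKM) and Cfd (2.2 FPKM). Plin1, Lep and Retn were listed at 0 in all 4 livers, while Adipoq did not exceed 0.0528 FPKM. Of 9 intestinal markers Fabp2 alone was expressed, a gene with known liver expression, and Alpi, Sis, Cdx1 and Cdx2 were listed at 0 in all livers. Of 9 pancreatic acinar markers 7 were listed at 0 in all livers. Cholangiocyte markers summed to between 205.5 and 248.9 FPKM, and haemoglobin genes with other erythroid markers to 1076, 830, 428 and 706 FPKM in livers 1 to 4. The part of blood in the levels of the carboxylesterase genes was not tested.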

How the data were processed

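Poly(A)-enriched libraries of total liver RNA were sequenced. The submitters' processing notes name FastQC 0.10.1, Trim Galore 0.6.3, cutadapt, STAR 2.7.6a, Cufflinks 2.2.1 and the build mm10. The values the authors deposited were read as FPKM, since they are not whole numbers, their sums differ between livers and the identifiers have the form of Cufflinks. The annotation and the handling of reads that fit several genes are not given in the sources used here. Columns were matched to livers by the sample descriptions, and 1 was added to the deposited starts.

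The depth, estimated from low values of genes with 1 transcript, was about 19500000, 19200000, 19100000 and 18400000 fragments for livers 1 to 4. Spread was computed on log2(FPKM + 1), which shrinks differences of genes near 1 FPKM, in Python 3.11.15 with pandas 2.3.3 and Biopython 1.88. A gene counted as expressed from a mean of 1 FPKM upward. The procedures were tested on simulated data. Protein sequences were not used here. The members and the gene lists were chosen with earlier results of these data known. By rule the text names all carboxylesterase genes of the table, the highest and lowest genes of each list, genes whose function bears on the members, and the 5 genes nearest to the member with the widest spread. For the cell type, zonation and acute phase lists, the highest and lowest genes were left out unless they bear on a statement, a departure from that rule. G0s2, Oat, Pon1, Kdelr2, Nr1h2, Gclc, Ugt1a1 and the markers at or near 0 were chosen after their values were seen. With 1 group no test between groups exists.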

Additional observations from a re-analysis of the deposited data

Results flagged for a closer look

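Of 74 levels, sums and ratios examined, 3 had a liver far from the others by Dixon's ratio, whose limit chance alone passes in about 1 of 20 groups. The 74 were the expressed carboxylesterase genes, a chosen part of the other genes named in the text, and sums and ratios. Other expressed genes of the lists were not among them, and several passed the limit, such as Nr1h2 (0.932), Gclc (0.924) and Ugt1a1 (0.911). Both ratios below have Ces1d as numerator. The ratio of Ces1d to Pnpla2 was 5.86 in liver 1 and 7.40 to 7.55 in the other livers (Dixon's ratio 0.911). The ratio of Ces1d to Ces1e was 5.01 in liver 1 and 6.50 to 6.80 in the other livers (0.832). Ces1d itself was lowest in liver 1, with a Dixon's ratio of 0.501. Ahr was at 5.24 FPKM in liver 1 and at 3.85 to 4.03 FPKM in the other livers (0.859).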

How the results depend on the processing

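Alternatives were pseudocounts of 0.1 and 5, a minimum mean of 0.1 FPKM, no filter, median-ratio scaling, scaling to an equal sum per liver and leaving out each liver in turn. Of 262 recomputed values 240 stayed within the spread between livers or within 1.5 times of the reported value, and 22 moved. For a median deviation the limit was 0.24, the median SD of the members, so the change of sign in liver 1 counted as unchanged. Some values could not move, such as subfamily shares under a scaling or the lowest liver under another pseudocount. Levels at an equal sum are in other units and counted as moved. The 240 are therefore no measure of stability. The median SD of all expressed genes was 0.11 with a pseudocount of 5, and 11.3% of genes passed the limit of Dixon's ratio with no filter. Scaled to an equal sum, the 10 genes summed to 5721 in its units, and 2 of 10 passed Dixon's ratio, against 5.37% of all expressed genes. At that scaling 4 of 10 were highest in liver 4, a count whose share over all expressed genes was not recomputed. With each liver left out in turn, the median SD of the members ranged from 0.22 to 0.27, their sum from 2896 to 3169 FPKM and their share of the table from 0.556% to 0.589%. Dixon's ratio was not run on 3 livers. No paired analysis was possible because the labels give a single group, so there is no other group whose samples could be matched to these by number. The depth limits the genes below 1 FPKM, where 1 fragment on 1 kb is worth 0.0512 to 0.0544 FPKM. Read sharing between paralogs limits Ces2c, Ces2a, Ces3a and Ces3b, and to a lesser degree Ces1c.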
